A study of Mus musculus with 2 samples.

Results

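Genes of the nasal and olfactory epithelium were followed in the whole heads of newborn mice that carried opposite parental duplications of the distal part of Chr 2. The members were 10 genes chosen by symbol, Omp, Obp1a, Obp1b, Scgb1c1, Cyp2a5, Cyp2f2, Cyp2g1, Foxj1, Reg3g and Muc5b, and every probe set with one of these as its only platform symbol was used. That rule found 8 probe sets for 7 of the 10 genes, among 18193 genes on the arrays. Each group was 1 array. In the head called MatDp(dist2) the chromosome part beyond the breakpoint of the translocation T(2:9)11H was present as 2 maternal copies of Chr 2 and, reciprocally, 2 paternal copies of distal Chr 9. In PatDp(dist2) both distal Chr 2 copies were paternal and both distal Chr 9 copies maternal. Both heads came from offspring of T(2:9)11H carriers, so neither group had the usual maternal and paternal copy of these parts. The strain background, the sex and the number of animals pooled per sample are not known from the labels. None of the members lies on Chr 2 or Chr 9. By the RefSeq annotation, 6 of them lie on Chr 7, Obp1a and Obp1b on Chr X, Foxj1 on Chr 11 and Reg3g on Chr 6.

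The nasal cavity is lined by a respiratory epithelium of ciliated and mucus-secreting cells and by an olfactory epithelium. In the olfactory epithelium sensory neurons detect odorants through odorant receptors, a G protein and an adenylyl cyclase, and supporting cells and Bowman's glands surround them with enzymes and secreted proteins. Cytochrome P450 enzymes of these cells oxidise inhaled chemicals and odorants, odorant-binding proteins and secretoglobins are secreted into the mucus, and beating cilia of the respiratory epithelium move the mucus along.

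The values were linear MAS5 signals of Affymetrix probe sets, scaled by the authors so that the arrays had nearly equal trimmed means. Between 48.3% and 51.6% of probe sets lay at or above a floor of 187, the median of the 50th percentiles of the arrays, and a gene was called measured where at least 1 head reached it. Where 1 head lay below the floor its signal was replaced by the floor, and the fold is then a bound. Each value comes from 1 array without replicates, so no difference could be set against the spread between animals and no test was possible. In RNA from a whole head, fewer cells of a type and less RNA per cell cannot be told apart.

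Of the 7 member genes on the arrays 5 were measured and 2, Omp and Obp1a, lay below the floor in both heads. Among the 5, Muc5b was at least 2-fold lower in MatDp(dist2) and 0 genes were at least 2-fold higher there. Of 12481 measured genes, 3.47% were at least 2-fold lower in MatDp(dist2) and 4.43% at least 2-fold higher, so a single member in 5 says little about the members as a set. The log2 ratio of MatDp(dist2) over PatDp(dist2) ran from -1.24 for Muc5b through -0.96 for Reg3g, -0.23 for Cyp2f2 and -0.22 for Foxj1 to 0.98 for Cyp2g1, with a median of -0.23 against 0.02 over all measured genes. The members therefore did not share one direction. Reg3g and Cyp2g1 lay just under 2-fold.

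**Figure D1:**
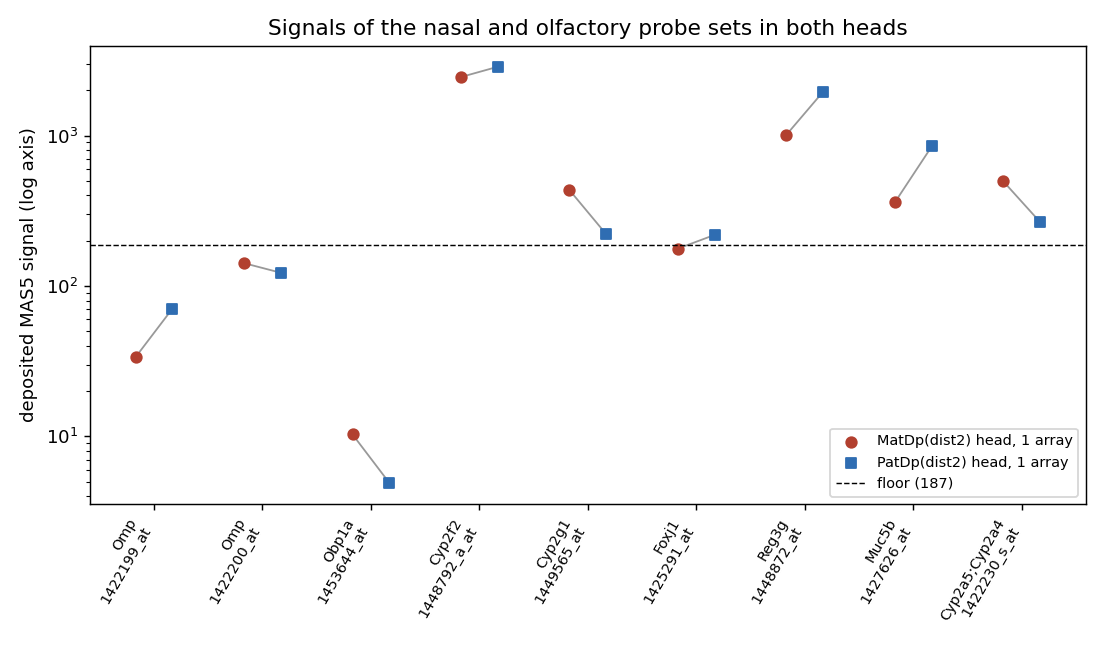
Deposited MAS5 signal on a log axis for the 8 member probe sets and, at the right, the probe set shared by Cyp2a5 and Cyp2a4. Circles are the MatDp(dist2) head and squares the PatDp(dist2) head, 1 array each, and the dashed line is the floor of 187. Both Omp probe sets and Obp1a lie below the floor in both heads, and Muc5b has 359.8 in MatDp(dist2) against 847 in PatDp(dist2).

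**Figure D2:**
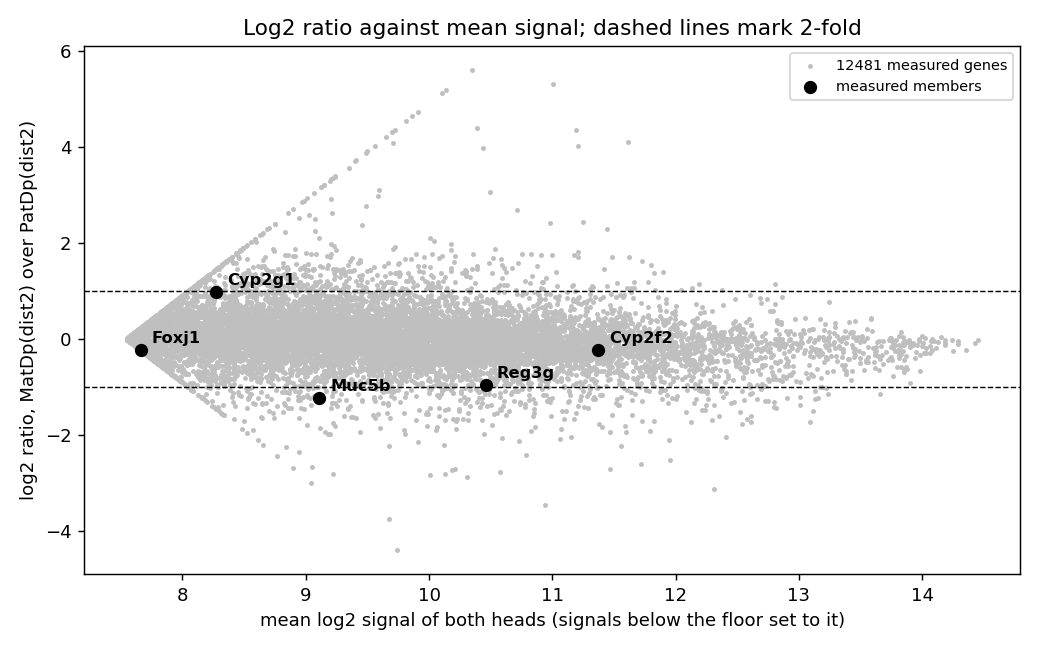
Log2 ratio of MatDp(dist2) over PatDp(dist2) against mean log2 signal for 12481 measured genes (grey) and the 5 measured members (black), with signals below the floor set to it. The dashed lines mark 2-fold, and Muc5b is the member that lies beyond one.

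Sequences upstream of the start were held in the RefSeq table for 6 members. They are shown for Reg3g and Cyp2f2, which were measured in both heads, and for Cyp2a5, the P450 read by the shared probe set, because they differ in a core promoter element. Each is the 250 bases before the annotated start in GRCm38.p6, on the strand of the gene, with matches of TATAAA in capitals. The regions are chr6:78468875-78469124 on the minus strand for Reg3g, chr7:26835089-26835338 on the plus strand for Cyp2a5 and chr7:27119705-27119954 on the plus strand for Cyp2f2.
Reg3g: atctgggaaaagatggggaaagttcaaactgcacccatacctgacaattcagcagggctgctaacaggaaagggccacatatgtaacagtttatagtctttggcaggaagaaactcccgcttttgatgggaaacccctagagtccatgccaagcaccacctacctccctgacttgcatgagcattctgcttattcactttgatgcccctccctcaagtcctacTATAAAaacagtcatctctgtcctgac
Cyp2a5: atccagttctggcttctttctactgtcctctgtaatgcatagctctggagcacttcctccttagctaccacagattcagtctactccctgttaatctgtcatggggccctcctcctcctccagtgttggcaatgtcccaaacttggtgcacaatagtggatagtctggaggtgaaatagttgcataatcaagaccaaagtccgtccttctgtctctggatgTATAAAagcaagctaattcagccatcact
Cyp2f2: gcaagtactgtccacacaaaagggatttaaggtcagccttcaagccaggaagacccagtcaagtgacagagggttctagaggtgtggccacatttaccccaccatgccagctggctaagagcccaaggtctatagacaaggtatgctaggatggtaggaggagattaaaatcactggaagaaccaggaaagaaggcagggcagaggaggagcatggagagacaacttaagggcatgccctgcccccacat
The letters TATAAA, searched on the gene's strand and chosen after other motifs had been looked at, begin 27 bases upstream of the start of Reg3g and 29 bases upstream of that of Cyp2a5. The window of Cyp2f2 holds 0 matches. A match was present in 4 of those 6 members, Reg3g, Cyp2a5, Obp1a and Obp1b, against 7.59% of 32851 windows of that length in the table. The match of Obp1a begins 30 bases upstream and that of its relative Obp1b farther away, at 61 bases. A match describes the letters of the window, and the arrays bear on no promoter directly.

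Omp encodes the olfactory marker protein, a cytoplasmic protein of mature olfactory sensory neurons. Probe set 1422199_at had a signal of 33.6 in MatDp(dist2) against 70.6 in PatDp(dist2). Probe set 1422200_at had 142 in MatDp(dist2) against 122 in PatDp(dist2). All of these values were below the floor, so no fold is given, and the defining marker of mature olfactory neurons was not above the floor in either head. The odorant receptors gave a similar picture, with 37 of 39 receptor genes on the arrays below the floor in both heads. The other 2 receptors, Olfr15 and Olfr65, reached it in the MatDp(dist2) head alone, with 236 in MatDp(dist2) against 129 in PatDp(dist2) and with 197 in MatDp(dist2) against 148 in PatDp(dist2).

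A list of 32 genes of olfactory sensory neurons, Omp among them, was present on the arrays with 28 genes, of which 22 were measured. At least 2-fold higher in MatDp(dist2) were 5 of the 22, and 0 were at least 2-fold lower, with a median log2 ratio of 0.33. Lhx2, a homeodomain factor required for olfactory neurons to mature, had 924 in MatDp(dist2) against 253 in PatDp(dist2), a 3.66-fold difference. Gnal, the G protein subunit that couples odorant receptors to adenylyl cyclase, had 1479 in MatDp(dist2) against 498 in PatDp(dist2) on probe set 1439957_at, or 2.97-fold. Its other probe sets gave 1.70-fold and 1.13-fold in the same direction. Calb2, a calcium-binding protein, had 1177 in MatDp(dist2) against 442 in PatDp(dist2), and Nsg1, an endosomal protein of neurons, had 6202 in MatDp(dist2) against 2354 in PatDp(dist2). The remaining gene past 2-fold, Gap43, had 3350 in MatDp(dist2) against 1563 in PatDp(dist2), or 2.14-fold. These 5 genes are also active in the brain, and Lhx2 lies on Chr 2, proximal of H13.

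The parts of the transduction chain that follow the receptor did not move as one. Adcy3, the adenylyl cyclase of olfactory cilia, had 819 in MatDp(dist2) against 812 in PatDp(dist2). Cnga2, a subunit of the olfactory cyclic nucleotide-gated channel, had 191 in MatDp(dist2), just above the floor, and 36.1 in PatDp(dist2). Cnga4 and Cngb1, further channel subunits, lay below the floor in both heads, as did S100a5, Ncam2 and Fezf1. The Ebf genes, which encode factors that bind promoters of olfactory neuron genes, differed among themselves: Ebf2 had 1016 in MatDp(dist2) against 1826 in PatDp(dist2), Ebf1 had 892 in MatDp(dist2) against 1474 in PatDp(dist2), Ebf3 had 1092 in MatDp(dist2) against 1183 in PatDp(dist2) and Ebf4 had 352 in MatDp(dist2) against 245 in PatDp(dist2). A dimmer probe set of Ebf1 and one of Ebf2 gave the opposite order.

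Of 7 measured genes of olfactory progenitors 3 were at least 2-fold higher in MatDp(dist2) and 0 at least 2-fold lower, and the median log2 ratio was 0.99. Of the other 4, Hes6, Kit and Lgr5 came under 2-fold. Pax6 had 371.5 in MatDp(dist2) against 109 in PatDp(dist2), below the floor, so its 1.99-fold is a lower bound. Neurod1, a proneural factor, had 1278 in MatDp(dist2) against 227 in PatDp(dist2), 5.63-fold apart. Insm1, a zinc finger factor of neuron precursors, had 759.7 in MatDp(dist2) against 113 in PatDp(dist2), at least 4.06-fold, and Sox2, a factor of stem and supporting cells, had 1865 in MatDp(dist2) against 899 in PatDp(dist2). Neurod1 and Insm1 also lie on Chr 2 proximal of H13. Neurog1, a proneural factor of the olfactory lineage, was below the floor in both. Of 6 measured genes of vomeronasal neurons, which detect pheromones, 1 was at least 2-fold higher, Gnao1, with 1985 in MatDp(dist2) against 882 in PatDp(dist2). Trpc2, the channel that defines these neurons, had 371 in MatDp(dist2) against 242 in PatDp(dist2) on 1 probe set and 244 in MatDp(dist2) against 219.5 in PatDp(dist2) on the other. Beside these lists, 8 of 11 measured genes of brain neurons were at least 2-fold higher in MatDp(dist2) and 0 lower, and their 12 genes on the arrays summed to a signal of 31598 there and 12644 in PatDp(dist2). This list, like those of epidermis and of salivary and lacrimal glands used further on, holds genes whose values on these arrays were already known, as were those of Dmbt1, S100a8, S100a9, Ltf and Ttr. The part of brain neurons in the olfactory lists was not tested.

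Among the secreted members Muc5b was the gene with a fold past 2. Muc5b encodes a gel-forming mucin of nasal and airway glands, and its probe set 1427626_at had 359.8 in MatDp(dist2) against 847 in PatDp(dist2), 2.35-fold lower with the maternal duplication. Of genes with a like mean signal, a log2 value of 9 to 10, the middle 80% had log2 ratios between -0.55 and 0.73, and Muc5b at -1.24 lay outside that range. With the floor at the 70th percentile the MatDp(dist2) signal fell below it and the bound was 1.82-fold. Muc5ac and Muc2, the gel-forming mucins of goblet cells, and the membrane mucins Muc1 and Muc4 lay below the floor in both heads.

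Obp1a, an odorant-binding lipocalin secreted by nasal glands, had a signal of 10.3 in MatDp(dist2) against 4.9 in PatDp(dist2), both far below the floor. Its relative on Chr X, Obp1b, and the secretoglobin Scgb1c1, a small protein of olfactory mucus, had no probe set with a single matching symbol and were not analysed here. Obp2a, another odorant-binding lipocalin, was likewise dim in both heads, at 92.5 in MatDp(dist2) against 153 in PatDp(dist2). The secreted proteins named for binding odorants were thus not measurable on these arrays.

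Of the genes of nasal glands and secretory cells other than the members, 30 were on the arrays and 18 were measured, 16 of them with a lower signal in MatDp(dist2). At least 2-fold lower were 6 and at least 2-fold higher 2, and the median log2 ratio was -0.67 against 0.02 over all measured genes. With Muc5b the median was -0.70. Dmbt1, a scavenger-receptor protein of mucosal secretions, had 384 in MatDp(dist2) against 2745 in PatDp(dist2), a 7.14-fold difference that was known when the list was made. Scgb3a2 and Scgb3a1, secretoglobins of airway lining cells, had 768.5 in MatDp(dist2) against 4061 in PatDp(dist2) and 519.6 in MatDp(dist2) against 2377 in PatDp(dist2), or 5.28-fold and 4.57-fold. Scgb1a1, the club cell secretoglobin, had 227 in MatDp(dist2) against 707 in PatDp(dist2), 3.11-fold lower with the maternal duplication. Lcn11, a lipocalin gene of Chr 2 proximal of H13, had 835 in MatDp(dist2) against 2220.5 in PatDp(dist2), and Agr2, a folding factor for mucins, was below the floor at 183 in MatDp(dist2) against 512 in PatDp(dist2).

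The exceptions were Bpifb9b, a BPI-fold secretory gene, with 3179 in MatDp(dist2) against 936 in PatDp(dist2), and Aqp3, a water and glycerol channel of surface epithelia, with 774 in MatDp(dist2) against 276 in PatDp(dist2). A dimmer probe set of Aqp3 had 221 in MatDp(dist2) against 80.2 in PatDp(dist2), a bound of 1.18-fold. Its remaining probe sets lay below the floor in both heads. Bpifb9b lies on Chr 2 between H13 and the distal end, a stretch taken here for the duplicated part because the labels do not place the breakpoint. Bpifa1, its family member of the nasal and upper airway lining from the same stretch, had 3521 in MatDp(dist2) against 5532 in PatDp(dist2). Of 10 measured genes of salivary and lacrimal glands 7 were at least 2-fold lower in MatDp(dist2) and 1 at least 2-fold higher. The higher one was Dcpp1, a secreted protein of salivary glands, with 3442.5 in MatDp(dist2) against 203 in PatDp(dist2). At 16.97-fold it had the largest ratio of that list among genes above the floor in both heads. Among the lower ones, Car6 had 594 in MatDp(dist2) against 6509 in PatDp(dist2), and Prol1 had 1725 in MatDp(dist2) against 14929.5 in PatDp(dist2). Mucl2 had 34.9 in MatDp(dist2), below the floor, against 1482 in PatDp(dist2), a bound of 7.92-fold. The 11 genes of the list on the arrays summed to a signal of 19594.5 there and 49792 in PatDp(dist2). Dmbt1, Muc5b, Scgb3a1, Agr2, Pigr and Aqp5 of the nasal list are also known from salivary or other mucosal glands, and the part of those glands in the difference was not tested. Among 9 genes of lung and lower airway on the arrays 5 were not measured, with Sftpa1, Sftpd, Nkx2-1, Napsa and Ager below the floor in both heads. Of the 4 measured, 1 was at least 2-fold higher and 2 were at least 2-fold lower in MatDp(dist2). The lower ones were Scgb1a1 and Scgb3a2, which belong to both this list and that of nasal glands. Of the surfactant genes, Sftpc had 212 in MatDp(dist2) against 195 in PatDp(dist2). Sftpb had 409.5 in MatDp(dist2) against 146 in PatDp(dist2), below the floor, so its 2.19-fold is a lower bound.

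**Figure D3:**
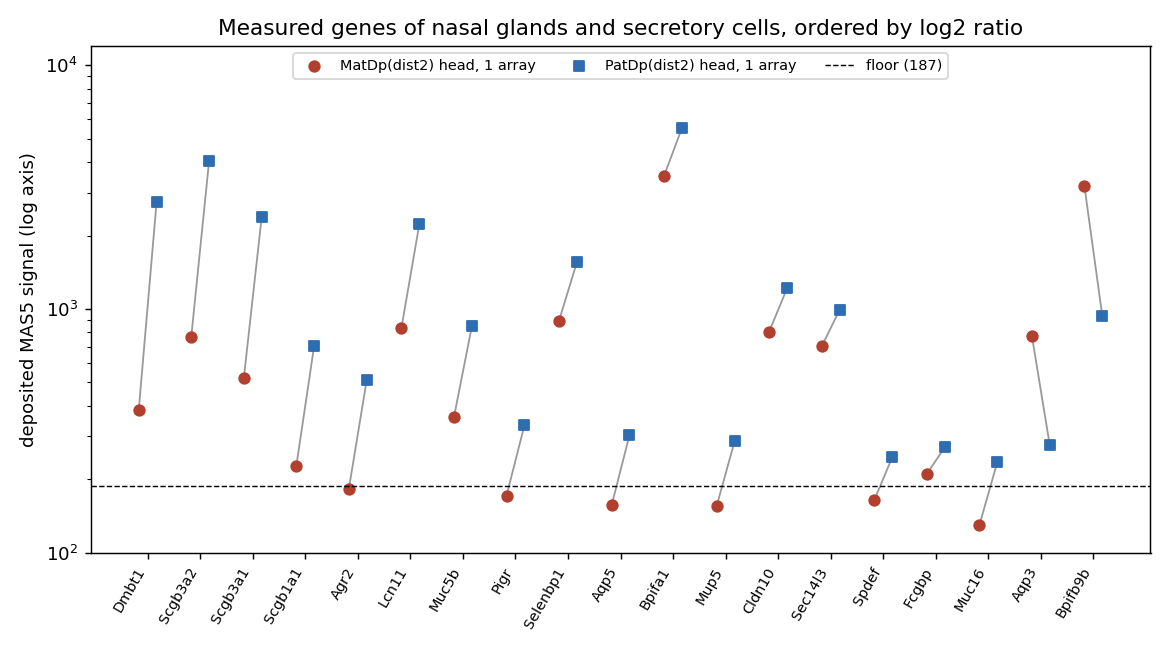
Deposited MAS5 signal on a log axis for the 19 measured genes of nasal glands and secretory cells, ordered from the lowest log2 ratio at the left. Circles are the MatDp(dist2) head, squares the PatDp(dist2) head, 1 array each, and the dashed line is the floor. In 17 genes the MatDp(dist2) point lies below the PatDp(dist2) point, and Aqp3 and Bpifb9b at the right show the opposite order.

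The cytochrome P450 members took different directions. Cyp2f2, which oxidises small aromatic chemicals in nasal and airway cells, had a signal of 2449 in MatDp(dist2) against 2866 in PatDp(dist2), a 1.17-fold difference. Its log2 ratio of -0.23 lay within the range of -0.74 to 0.43 that held the middle 80% of genes with a mean log2 signal of 11 to 12. Cyp2g1, a P450 found mainly in olfactory mucosa, went the other way with 434 in MatDp(dist2) against 220.2 in PatDp(dist2), or 1.97-fold. Its log2 ratio of 0.98 lay at the upper edge of its class, where the middle 80% of genes had -0.59 to 0.94. At a mean log2 signal of 8 to 9, 12.02% of genes were at least 2-fold apart, which is the background for a gene as dim as Cyp2g1.

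Cyp2a5, an olfactory and liver P450 that hydroxylates coumarin, had no probe set of its own. Probe set 1422230_s_at, which the platform assigns to both Cyp2a5 and its close relative Cyp2a4, had 495 in MatDp(dist2) against 265 in PatDp(dist2), 1.87-fold higher with the maternal duplication. Which of these genes gave the signal cannot be told apart from this probe set, and it was left out of the member counts. In the order of protein-coding genes on Chr 7, Cyp2g1 and Cyp2a5 are neighbours, with Cyp2b19, a P450 of epidermal keratinocytes, on one side and Cyp2a22, Cyp2a12 and Cyp2f2 on the other. Cyp2b19 was in the same direction, with 393 in MatDp(dist2) against 117 in PatDp(dist2) and a bound of 2.10-fold, while Cyp2a12 lay below the floor in both heads. Cyp2f2, at 1.17-fold, thus had the opposite direction to Cyp2g1, Cyp2b19 and the probe set of Cyp2a5 and Cyp2a4. It was not alone in that among Cyp2 genes of Chr 7. Cyp2b10 had 95.1 in MatDp(dist2) against 230 in PatDp(dist2), and Cyp2e1 had 169 in MatDp(dist2) against 231 in PatDp(dist2). Both MatDp(dist2) signals were below the floor. Cyp2s1 was nearly equal, with 420 in MatDp(dist2) against 407 in PatDp(dist2). Cyp2f2 and Cyp2a5 are also liver genes. All 12 liver markers, Alb and Apoa1 among them, were below the floor in both heads. Their highest signal was 139 in MatDp(dist2) against 169 in PatDp(dist2). The tissue source of the P450 signals was not tested.

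The wider list of supporting cell and nasal detoxification genes had 22 measured members, of which 1 was at least 2-fold higher and 2 at least 2-fold lower in MatDp(dist2), with a median log2 ratio of -0.15. Sult1c1, a sulfotransferase of olfactory epithelium, had 426 in MatDp(dist2) against 155 in PatDp(dist2), at least 2.28-fold. Hes1, a Notch target that marks supporting cells among others, had 752 in MatDp(dist2) against 391 in PatDp(dist2). Fmo1, a flavin monooxygenase, had 1847 in MatDp(dist2) against 4631 in PatDp(dist2), and Cyp4b1, a P450 of airway tissue, had 239.5 in MatDp(dist2) against 569 in PatDp(dist2), 2.38-fold lower. With an offset of 100 on every signal, Cyp4b1 and Sult1c1 came under 2-fold. Cyp1a2, Aldh3a1, Gsta3, Adh7, Fmo2, Ces1f and Ermn lay below the floor in both heads. As among the P450 members, genes of this list lay on both sides of 0.

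Foxj1 encodes the forkhead factor that switches on the genes of motile cilia. Its probe set 1425291_at had 177, just below the floor, in MatDp(dist2) against 219 in PatDp(dist2), a bound of 1.17-fold. Of 47 genes of ciliated cells on the arrays 22 were measured, 2 at least 2-fold higher in MatDp(dist2) and 0 at least 2-fold lower. Their median log2 ratio was 0.14 as deposited and -0.03 after quantile normalization, so the list had no stable direction. Rfx3, a factor that acts with Foxj1 on cilia genes, had 1209 in MatDp(dist2) against 446.5 in PatDp(dist2) on 1 probe set, while its other probe set lay below the floor. Myb, a factor of early multiciliated cells that is also active in blood precursors, had 460.4 in MatDp(dist2) against 194.5 in PatDp(dist2). A dimmer probe set of Myb had 278 in MatDp(dist2) against 117.5 in PatDp(dist2), a bound of 1.49-fold. Another lay below the floor in both heads.

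Named genes of the ciliary machinery that were above the floor in both heads came under 2-fold. Dnah9, an outer dynein arm heavy chain of motile cilia, had 232 in MatDp(dist2) against 211 in PatDp(dist2), and Rsph9, a radial spoke protein, had 402.5 in MatDp(dist2) against 316 in PatDp(dist2). Tubb4b, a tubulin of cilia and of many other cells, had 6370 in MatDp(dist2) against 5402 in PatDp(dist2). Tppp3, a tubulin polymerisation factor, had 1802 in MatDp(dist2) against 3028 in PatDp(dist2). Its log2 ratio of -0.75 was the lowest of the list among genes above the floor in both heads. Dnaic1, a dynein intermediate chain, had 125 in MatDp(dist2), below the floor, against 279 in PatDp(dist2), a bound of 1.49-fold. Dnaic1 passed 2-fold when the floor was at the 30th percentile. Another ciliated tissue of the head, choroid plexus and ependyma, had 1 of 6 measured genes at least 2-fold higher in MatDp(dist2), the thyroxine carrier Ttr with 12952 in MatDp(dist2) against 327 in PatDp(dist2), and its 9 genes on the arrays summed to 17108 in MatDp(dist2) against 4421 in PatDp(dist2). Ttr made up nearly all of that difference in summed signal, since the other 8 summed to 4156 in MatDp(dist2) against 4094 in PatDp(dist2). Of the 5 measured genes without Ttr, 4 had a higher signal in MatDp(dist2), 0 of them by 2-fold, with a median log2 ratio of 0.43. Aqp1, a water channel, went the other way with 1759 in MatDp(dist2) against 2466 in PatDp(dist2). The part of choroid plexus and ependyma in the cilia genes was not tested.

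Reg3g encodes a secreted C-type lectin that binds Gram-positive bacteria at mucosal surfaces. Its probe set 1448872_at had 1012 in MatDp(dist2) against 1962 in PatDp(dist2), 1.94-fold lower with the maternal duplication. The log2 ratio of -0.96 lay outside the range of -0.70 to 0.52 that held the middle 80% of genes with a mean log2 signal of 10 to 11. Reg3b and Reg3a, its relatives of the same cluster on Chr 6, lay below the floor in both heads. Reg3g was thus the only one of these 3 lectin genes that reached the floor. Its upstream window is the one printed first, and no value here bears on the TATAAA in it.

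Of the other genes of mucosal defence 10 were measured, 8 of them with a lower signal in MatDp(dist2). At least 2-fold lower were 3, S100a8 (448 in MatDp(dist2) against 1320 in PatDp(dist2)), Pglyrp1 (1295 in MatDp(dist2) against 2918 in PatDp(dist2)) and S100a9 (312 in MatDp(dist2) against 666 in PatDp(dist2)), which are proteins of neutrophils, and 2 were at least 2-fold higher. The median log2 ratio was -0.68 without Reg3g and -0.78 with it. The values of S100a8, S100a9 and Ltf were known when the list was made. Lyz1, a lysozyme, had 947 in MatDp(dist2) against 1809 in PatDp(dist2). Ltf, the iron-binding lactoferrin of secretions and neutrophils, had 617 in MatDp(dist2) against 1062 in PatDp(dist2). Ltf lies on Chr 9, where the labels do not place the breakpoint either. Slpi, a protease inhibitor of mucosae and skin that also lies distal of H13 on Chr 2, had 1625 in MatDp(dist2) against 214 in PatDp(dist2), a 7.58-fold difference. Defb1, an epithelial defensin, had 378.5 in MatDp(dist2) against 162 in PatDp(dist2), at least 2.02-fold, and came under 2-fold with median centring. Of 10 epidermis genes 8 were at least 2-fold higher in MatDp(dist2) and 0 at least 2-fold lower, and they summed to 50483 in MatDp(dist2) against 6888 in PatDp(dist2). The part of skin in the values of Slpi, Defb1 and Aqp3 was not tested, and neither was that of neutrophils in the defence genes.

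Across the 8 lists of nasal and olfactory cells, 110 of 209 different genes were measured, 16 at least 2-fold higher and 12 at least 2-fold lower in MatDp(dist2). Over all 12481 measured genes, 4.43% were at least 2-fold higher and 3.47% at least 2-fold lower there. The lists of olfactory neurons, progenitors, vomeronasal neurons and receptors (22, 7, 6 and 2 measured) held 9 of the 16 higher genes. Those of secretory and defence genes (19 and 11 measured) held 10 of the 12 lower ones. The lists were chosen with earlier results known, those of Dmbt1, S100a8 and S100a9 included, so neither count is independent support for a pattern. The members followed the lists to which they belong only in part. Muc5b, Reg3g and Cyp2f2 had the sign of the median of the other genes of their lists. Cyp2g1 and, as deposited, Foxj1 had the opposite sign.

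**Figure D4:**
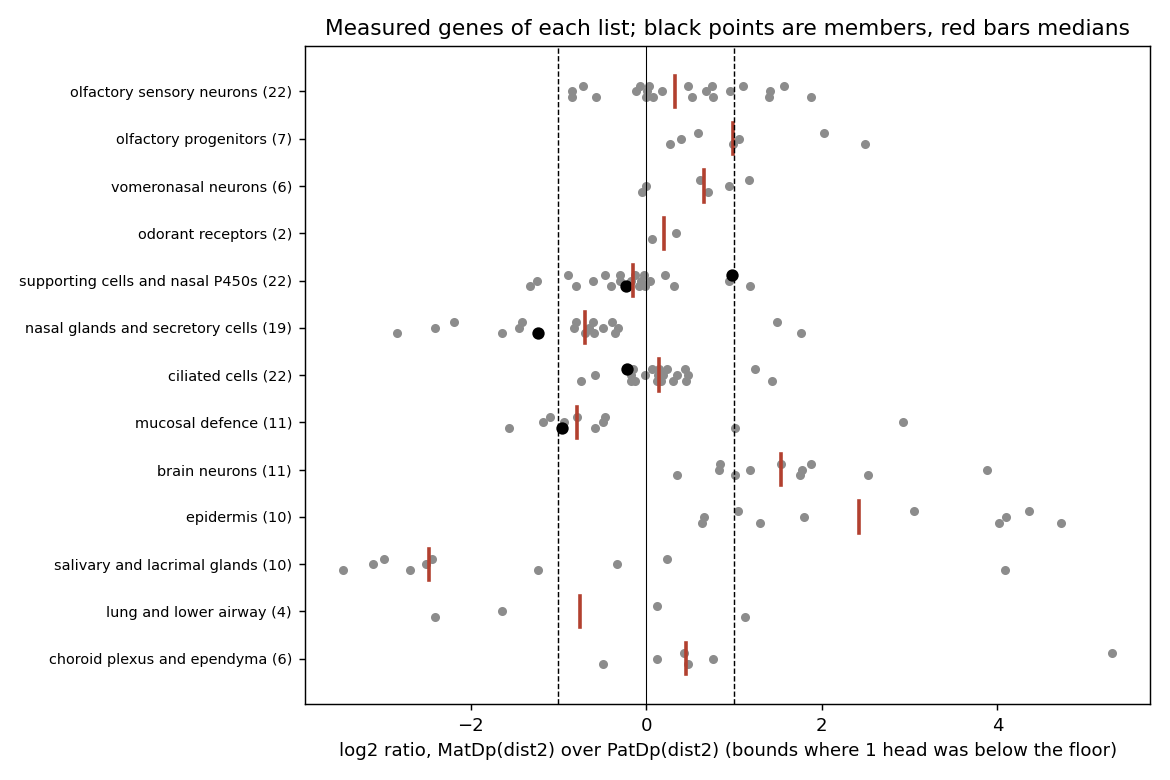
Log2 ratio of MatDp(dist2) over PatDp(dist2) for the measured genes of each list, with the number measured in brackets, black points for members and red bars for medians. Dashed lines mark 2-fold. The median of nasal glands and secretory cells is -0.70 and that of mucosal defence -0.78, while that of olfactory progenitors is 0.99.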

How the data were processed

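The heads of 2 newborn groups were measured on 1 Affymetrix array each. The deposited values are intensity signals on a linear scale, made by the authors with MAS5 and GCOS per the submitters' processing notes (versions not stated), and the mean signal without the outer 2% was 499.6 and 499.7. Detection calls were not used, and scaling to a common mean fixes no direction for all genes at once. From 45101 probe sets 64 controls were left out, 34945 had 1 symbol, and 34741 of these were matched by gene ID to RefSeq (GRCm38.p6), used for names, chromosomes and gene order. The 932 with several symbols and 9160 not listed stayed unnamed. For each gene the probe set of highest mean log2 signal was taken, and every member probe set is given. The floor, the bounds and a fixed 2-fold threshold took the place of a test. Scoring was tested on simulated arrays (Python 3.11.15, pandas 2.3.3, statsmodels 0.14.6). Members and lists were chosen with earlier results of these data known. Named in the text are the members, genes from among the 4 with the largest ratios of a list and those past 2-fold against its median. Brain neurons and epidermis are given as counts and sums alone. Further genes were chosen after their values were seen. Alternatives were median centring, quantile and loess normalization, floors at the 30th and 70th percentiles, an offset of 100, a 3-fold threshold and the mean over probe sets.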

Additional observations from a re-analysis of the deposited data

How the results depend on the processing

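No paired analysis was possible because each group was 1 array. Under median centring, quantile normalization, the loess fit and the offset of 100, the 5 measured members kept their direction and their side of 2-fold, with log2 ratios of -1.34 to -1.04 for Muc5b, -0.99 to -0.89 for Reg3g, -0.26 to -0.12 for Cyp2f2, -0.32 to -0.15 for Foxj1 and 0.74 to 0.98 for Cyp2g1. With a floor of 465, the 70th percentile, or a 3-fold threshold, 0 member probe sets were lower by that much in MatDp(dist2). At 1.5-fold, a threshold chosen after the values were seen, 1 was higher (Cyp2g1) and 2 lower (Muc5b and Reg3g), against 22.8% of all measured genes past it in either direction. With the floor at the 30th percentile (75.2), Omp probe set 1422200_at was above it in both heads at 1.16-fold. Of all genes, the 553 higher in MatDp(dist2) became 833 with the floor at the 30th percentile, 266 at the 70th, 356 with the offset, 146 at 3-fold and 1496 at 1.5-fold, and the 433 lower ones became 100 at 3-fold and 1352 at 1.5-fold. In the 8 nasal lists, the 16 higher genes became 10 with the floor at the 70th percentile, 5 at 3-fold and 27 at 1.5-fold, and the 12 lower ones became 7, 4 and 28. Single named genes came under 2-fold with the floor at the 70th percentile (Lhx2, Insm1, Scgb1a1, Agr2, Aqp3, Cyp4b1, Cyp26b1, Cyp27a1 and S100a9), with the offset (Sox2, Myb, Sult1c1, Cyp2b19, Cyp4b1, S100a9, Sftpb and Defb1), with the mean over probe sets (Gnal), with the 3 scalings (Defb1) and with quantile normalization (Cyp2b19). Cyp2b19, Defb1, Myb, Sftpb and Sult1c1 were below the floor at the 70th percentile in both heads, and the mean over probe sets gave no value for genes with a bound. Among the named genes past 2-fold, 0 changed direction where they had a value. Meis2 passed 2-fold with quantile and loess normalization, Lyz1 with the mean over probe sets, and Cnga2, Pax6, Otx2, Dnaic1 and Scgb1b27 with the lower floor. Of the other list medians, that of lung and lower airway was 0.00 with the floor at the 30th percentile instead of -0.76. Dim probe sets limit Omp, Obp1a, Foxj1 and Cyp2g1, and 1 array per group limits every value. The causes of these shifts were not tested beyond the fewer or more genes that a floor or threshold leaves.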

Other observations

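Families of the members were also followed by symbol, a choice made after values were seen. Of 6 secretoglobin genes on the arrays 5 were measured, and all 5 had a lower signal in MatDp(dist2), 4 of them by at least 2-fold, and the median log2 ratio was -2.19. Besides Scgb3a2, Scgb3a1 and Scgb1a1 these were Scgb2b27, a secretoglobin of lacrimal and salivary glands, and Scgb1b27, an androgen-binding protein subunit of saliva and tears. Scgb2b27 had 153 in MatDp(dist2) against 1207 in PatDp(dist2), a bound of 6.45-fold. Scgb1b27 had 107 in MatDp(dist2) against 311 in PatDp(dist2), a bound of 1.66-fold. Both MatDp(dist2) signals were below the floor.

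Of 73 cytochrome P450 genes 25 were measured, 2 at least 2-fold higher and 2 at least 2-fold lower in MatDp(dist2), with a median log2 ratio of 0.14. Cyp26b1, which degrades retinoic acid, had 613 in MatDp(dist2) against 242 in PatDp(dist2), and Cyp27a1, a sterol hydroxylase, had 250 in MatDp(dist2) against 641 in PatDp(dist2). Within the Cyp2 family 7 of 11 measured genes had a higher signal in MatDp(dist2), and Cyp2b19 alone passed 2-fold. The 3 Foxj genes came under 2-fold and in both directions, with Foxj2 at 1355 in MatDp(dist2) against 1109 in PatDp(dist2) and Foxj3 at 1356 in MatDp(dist2) against 1556 in PatDp(dist2).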
